A study of Mus musculus with 8 samples.

Results

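The genes described are the ligands and receptors of the EGF family, chosen because Hbegf, a ligand of the EGF receptor, read higher in R26Pax3/Pax3 palatal shelves than in wild type. The family was thus chosen on the measured difference of Hbegf. Its members were found by name, as every probe set of the array annotated with exactly 1 of 10 symbols: the ligands Hbegf, Areg, Ereg, Tgfa, Btc, Egf and Nrg1, and the receptors Egfr, Erbb2 and Erbb4. This gave 19 of 45037 probe sets, for 9 of the 10 genes and of the 18193 genes that the array names. Areg, which encodes amphiregulin, had no probe set under this rule and was not analysed here. The values of Hbegf are therefore described without a test. The other genes came in by family membership and keep their tests over the whole array.

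Ligands of the EGF family are made as membrane-anchored precursors, and metalloproteases release most of them from the cell surface. Egf, Tgfa and Areg bind EGFR, Hbegf, Btc and Ereg bind both EGFR and ERBB4, and Nrg1 binds ERBB3 and ERBB4. ERBB2 has no known ligand and acts as the partner of the other receptors, and active receptors signal largely through RAS and the ERK kinases. Mice without EGFR can have a cleft palate, and signalling through EGFR has long been studied in the epithelium at the edge of the fusing palatal shelves.

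Total RNA was measured in palatal shelves, the outgrowths of the upper jaw that fuse into the palate, of mouse embryos at embryonic day 14.5 from a C57BL/6 X SV129 cross. One group carried the genotype R26Pax3/Pax3, in which Pax3, a paired-box regulator of neural crest and of muscle progenitors, is placed at the Rosa26 locus, and the other was wild type littermates. Each group had 4 arrays, and the labels number the R26Pax3/Pax3 replicates 1, 3, 4 and 7 and the wild type ones 2, 6, 8 and 11. The labels name no line that drives the allele and no cells that express it, and how many embryos went into a sample is not stated there, so the p-values cover only the spread among the samples at hand, which may be technical. In bulk tissue, fewer cells of a type and less RNA per cell cannot be told apart.

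Values are linear MAS5 signals of Affymetrix probe sets, each built from several short probes, and a signal can be compared between arrays but not between probe sets. The array medians lay between 43.5 and 44.9. They do not measure background, and without detection calls a signal below them was treated here as not told apart from it. The labels were checked by the inserted gene: the brightest probe set of Pax3 read 532 to 722 in R26Pax3/Pax3 and 142 to 176 in wild type, and Gt(ROSA)26Sor, the transcript of the Rosa26 locus, read 12.8 to 30.3 against 271 to 390. Pax3 read 305 to 478 against 71.2 to 108 on 1430335_a_at. On 1441743_at it went the other way on average, with overlapping groups, at 66 to 113 against 82.1 to 111. Differences are log2(signal + 16) in R26Pax3/Pax3 minus wild type, a scale that understates changes of dim probe sets. Of 27021 probe sets tested with limma, 4 passed a Benjamini-Hochberg adjusted p of 0.05, or 0.0148%, and none of the 4 belonged to the EGF family.

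Hbegf was higher in R26Pax3/Pax3 on both of its probe sets, without overlap between the groups on the brighter one. On 1418350_at it read 129, 107, 126 and 135 in R26Pax3/Pax3 replicates 1, 3, 4 and 7, and 64.4, 79.9, 70.6 and 67.6 in wild type replicates 2, 6, 8 and 11. The lowest R26Pax3/Pax3 array, replicate 3, thus lay above the highest wild type array, replicate 6. The group means were 124 ± 12 and 70.6 ± 6.68 (SD, n = 4 each), a ratio of 1.76 and a log2 difference of 0.69. All 8 values lay above the medians of their arrays.

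The dimmer probe set of Hbegf gave a smaller difference with overlapping groups. On 1418349_at Hbegf read 73.1, 57.2, 84.7 and 59.3 in R26Pax3/Pax3 and 36.1, 35.9, 67.0 and 48.9 in wild type, in the same order of replicates. Wild type replicate 8, at 67.0, lay above R26Pax3/Pax3 replicates 3 and 7, while wild type replicates 2 and 6 lay below the array medians. The means were 68.6 ± 12.9 and 47.0 ± 14.7 (SD, n = 4 each), a ratio of 1.46 and a log2 difference of 0.44. Among the 12 tested probe sets of the family, 1418350_at was the only one whose groups did not overlap. Over all probe sets tested, 1.39% had all 4 R26Pax3/Pax3 arrays above all wild type arrays. Hbegf was chosen for this difference, so nothing is read from that count.

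The difference of Hbegf was present in both sets of arrays by order of deposition. The first 4 arrays deposited and the last 4 each held 2 arrays of each genotype. Within the first set the log2 difference was 0.55 on the brighter and 0.30 on the dimmer probe set, and within the last set it was 0.84 and 0.58. Leaving out any 1 array kept it between 0.66 and 0.75 on the brighter probe set and between 0.35 and 0.58 on the dimmer. Because the groups did not overlap on the brighter probe set, its positive sign in each of these subsets was fixed in advance. Only the sizes are described.

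The other ligands were dim. Of their 8 probe sets, 6 lay below the array median on all 8 arrays, and the other 2, both of Tgfa, lay below it on 4 arrays each. The plot of the dim probe sets gives every value.

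**Figure D1:**
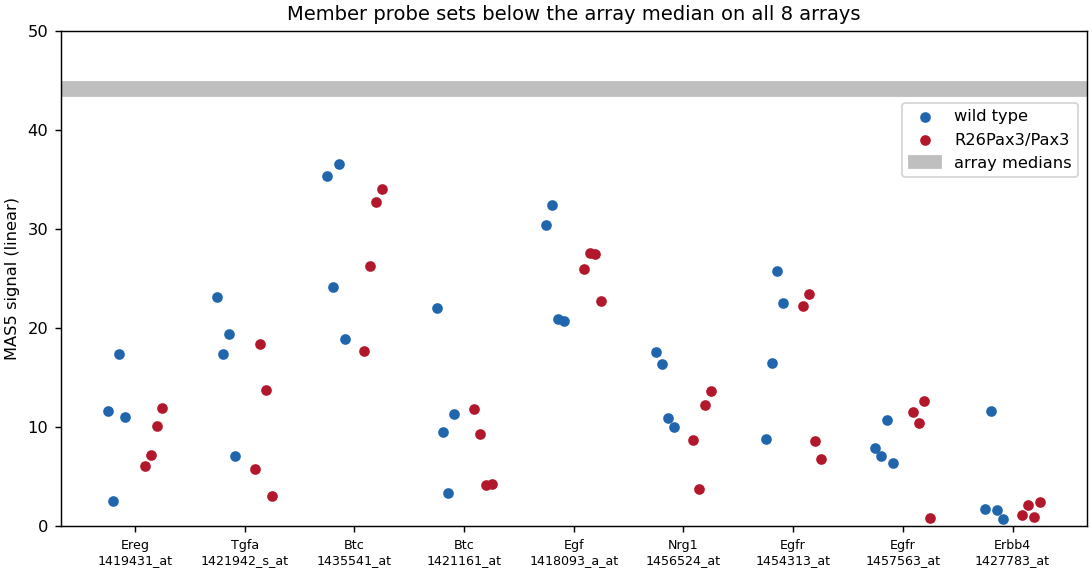
MAS5 signal (linear) of the 9 member probe sets that lay below the array median on all 8 arrays, with 1 point per array, wild type in blue and R26Pax3/Pax3 in red. The grey band spans the array medians, 43.5 to 44.9, and the groups overlap on each of the 9 probe sets.

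Tgfa, the ligand TGF-alpha, was read by 3 probe sets and did not differ beyond the spread on either of those tested. On 1421943_at it read 41.6, 42.7, 47.1 and 53.8 in R26Pax3/Pax3 replicates 1, 3, 4 and 7 and 36.4, 37.0, 56.1 and 57.1 in wild type replicates 2, 6, 8 and 11. The wild type arrays thus spread on both sides of the R26Pax3/Pax3 arrays, and the log2 difference was 0.01 (SE 0.159, 95% interval -0.34 to 0.35, limma adjusted p = 1.00). On 1450421_at R26Pax3/Pax3 averaged 37.0 ± 9.28 and wild type 43.8 ± 14.1 (SD, n = 4 each), with a log2 difference of -0.16 (95% interval -0.61 to 0.30). Wild type replicate 6 stood apart there, at 23.1 against 48.3 to 54.8 in the other wild type arrays, and without it the difference was -0.35. The third probe set, 1421942_s_at, read 3.0 to 18.4 in R26Pax3/Pax3 and 7.1 to 23.1 in wild type and was too dim to test.

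Egf, the founding ligand of the family, read 26, 27.6, 27.5 and 22.7 on its 1 probe set in R26Pax3/Pax3 and 30.4, 32.4, 20.9 and 20.7 in wild type. The R26Pax3/Pax3 values lay inside the range of the wild type values. The log2 difference was 0.00 (SE 0.161, 95% interval -0.35 to 0.36, limma adjusted p = 1.00). Btc, betacellulin, read 17.7 to 34.1 on 1435541_at in R26Pax3/Pax3 and 18.9 to 36.6 in wild type. Its log2 difference was -0.03 (SE 0.194, 95% interval -0.45 to 0.39, limma adjusted p = 1.00). All values of both genes lay below the array medians, so these differences may be those of background.

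Ereg and Nrg1 were not tested, since their signals lay below the limit of 25.4 set on the mean over all arrays. Ereg, epiregulin, read 6.1 to 11.9 in R26Pax3/Pax3 and 2.5 to 17.4 in wild type. Nrg1, a neuregulin known for its action on Schwann cells and heart, read 3.7 to 13.6 and 10 to 17.6. The second probe set of Btc read 4.1 to 11.8 and 3.3 to 22. The groups overlapped on each of them, and no size is given because background was not told apart from signal.

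Erbb2 read well above the array median on every array, and the genotypes overlapped. On 1424919_at, its only probe set, it read 252, 235, 209 and 231 in R26Pax3/Pax3 replicates 1, 3, 4 and 7 and 220, 203, 229 and 226 in wild type replicates 2, 6, 8 and 11. R26Pax3/Pax3 replicates 1, 3 and 7 lay above all wild type arrays, the nearest by the margin of 231 over 229, and R26Pax3/Pax3 replicate 4 lay below all wild type arrays but replicate 6. The means were 232 ± 17.6 and 220 ± 11.5 (SD, n = 4 each), a log2 difference of 0.07 (SE 0.0926, 95% interval -0.13 to 0.27, limma adjusted p = 1.00). This is the narrowest interval in the family.

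Egfr, the receptor of Hbegf, was read by 7 probe sets, of which 5 were tested and none passed. On the brightest, 1435888_at, it read 333, 448, 407 and 284 in R26Pax3/Pax3 replicates 1, 3, 4 and 7 and 297, 419, 419 and 258 in wild type replicates 2, 6, 8 and 11. Each genotype thus held 2 high and 2 low arrays, and the means were 368 ± 73.5 and 348 ± 83.4 (SD, n = 4 each). The log2 difference was 0.08 (SE 0.174, 95% interval -0.29 to 0.46, limma adjusted p = 1.00). On 1424932_at the difference was 0.15 (95% interval -0.25 to 0.54) and on 1460420_a_at it was -0.04 (95% interval -0.36 to 0.27). The remaining tested probe sets of Egfr, 1451530_at and 1432647_at, had differences of 0.10 and 0.09. The untested ones, 1454313_at and 1457563_at, read at most 25.8 on any array.

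**Figure D2:**
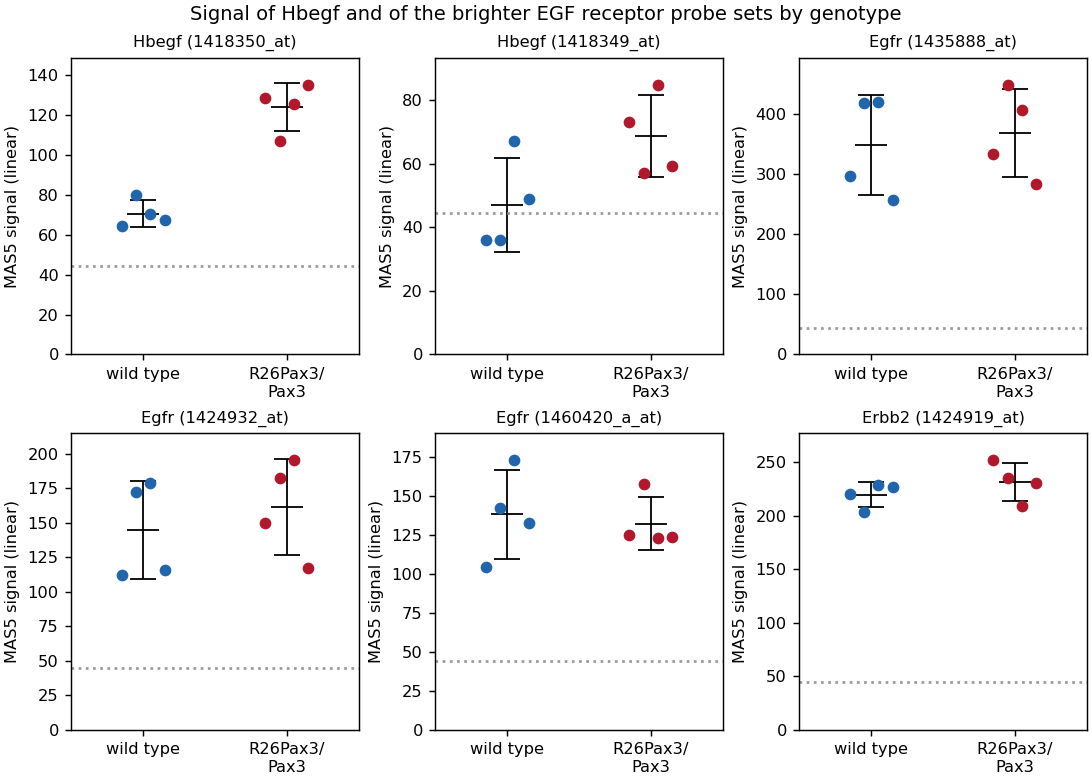
MAS5 signal (linear, axis from 0) by genotype for both Hbegf probe sets and for the Egfr and Erbb2 probe sets above the array median on all 8 arrays, with points for arrays, black bars for mean ± SD (n = 4 each) and a dotted line at the mean of the array medians. The groups are apart on Hbegf 1418350_at, at 107 to 135 against 64.4 to 79.9, and overlap on the other 5 panels.

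The 2 brightest probe sets of Egfr varied together across arrays, with both genotypes among the high and the low arrays. On 1435888_at and 1424932_at the 4 highest arrays were R26Pax3/Pax3 replicates 3 and 4 and wild type replicates 6 and 8. The lowest 3 on both were R26Pax3/Pax3 replicate 7 and wild type replicates 2 and 11. Of the 4 high arrays, 3 were among the first 4 deposited, and the 3 low arrays were among the last 4. The means of the first and last 4 arrays were 405 and 311 on 1435888_at and 171 and 135 on 1424932_at. On 1460420_a_at they were 149.8 and 121, but its high and low arrays were not the same. There R26Pax3/Pax3 replicate 4 read 123.3, below wild type replicate 11 at 133.1. These differences by order of deposition were noticed in the data and are given without a test, and the labels name no batch. The dimmer 1451530_at and 1432647_at did not share the pattern, with means of 53.9 and 54.1 on the former and 43.4 and 43.4 on the latter.

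**Figure D3:**
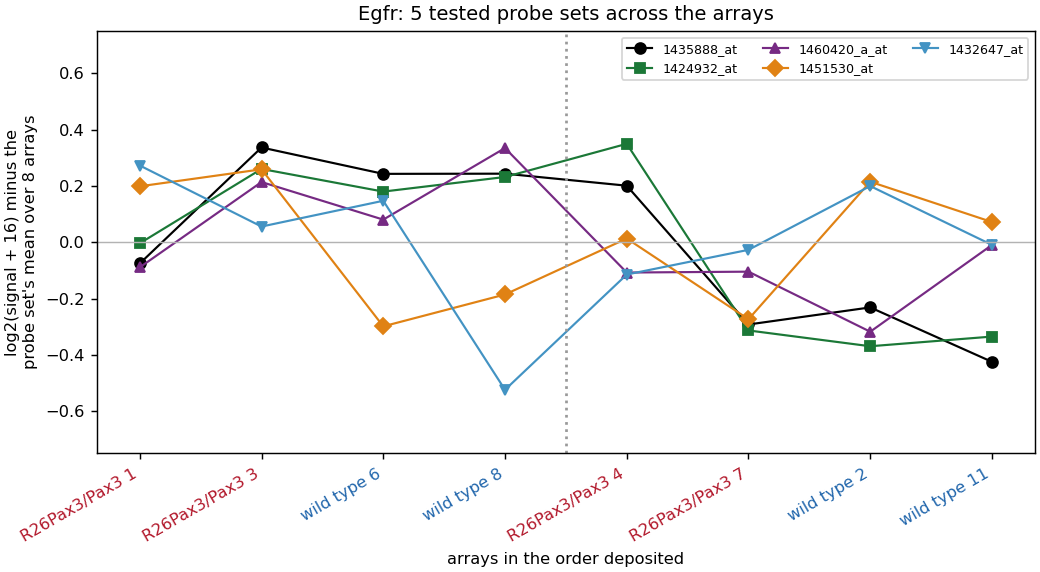
Log2(signal + 16) of the 5 tested Egfr probe sets, each less its mean over the 8 arrays, with arrays in the order deposited, a dotted line between the first and last 4, and labels in red for R26Pax3/Pax3 and blue for wild type. On 1435888_at the values run from -0.43 in wild type replicate 11 to 0.34 in R26Pax3/Pax3 replicate 3, with both genotypes on each side of 0.

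The sign of the Egfr difference depended on the arrays compared. On 1435888_at the log2 difference was -0.11 within the first 4 arrays and 0.28 within the last 4, and on 1424932_at it was -0.08 and 0.37. On 1451530_at the order was the opposite, 0.47 and -0.27. For Erbb2 the values were 0.16 and -0.02.

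Erbb4, a receptor for Hbegf, Btc, Ereg and Nrg1, gave hardly any signal. Its 1 probe set read 0.9 to 2.4 in R26Pax3/Pax3 and 0.7 to 11.6 in wild type, where the value of 11.6 was that of replicate 6 and the other 3 lay at 1.7 or less. A dim probe set does not show that the transcript is absent.

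None of the tested ligands and receptors besides Hbegf was called. Hbegf was part of the fit over the whole array and was not among the calls. It was chosen on this contrast, so nothing is read from that outcome. Of the 10 tested probe sets besides Hbegf, 7 had a log2 difference above 0 and 3 below it, 0 passed the adjusted p in limma, and 0 had an unadjusted p under 0.05, where 4.86% of all tested probe sets did. Their smallest unadjusted p was 0.431 (limma adjusted p = 1.00, on Egfr 1424932_at, n = 4 each). By the mean of the linear signal, 5 were higher and 5 lower. Their log2 differences lay between -0.16 and 0.15, with a median of 0.04 beside 0.00 over all probe sets tested. None of the 10 intervals reached the 0.69 of Hbegf, the highest bound being 0.54 on Egfr 1424932_at. That 0.69 is the value that chose the family and has no interval. The comparison therefore cannot show that the other members rose less than Hbegf. Of these intervals 4, all of Egfr, reached the 0.44 of the dimmer Hbegf probe set. Smaller changes lie within the intervals, and for the dim ligands the interval holds only for the signal as measured, background included.

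**Figure D4:**
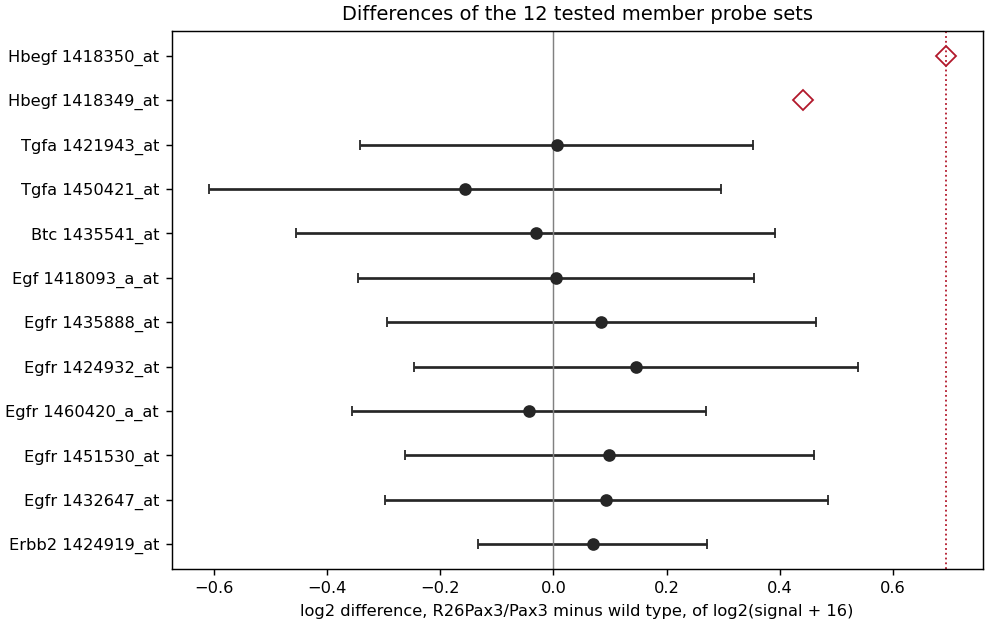
Log2 difference, R26Pax3/Pax3 minus wild type, of the 12 tested member probe sets, as black points with 95% intervals from limma. The Hbegf probe sets, which chose the family, are open diamonds without an interval, and the dotted line marks the 0.69 of the brighter one, which lies to the right of all 10 intervals.

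Of the family's 5 remaining genes, which were not among the 10, only Erbb3 and Nrg2 were bright enough to test, and neither was called. Erbb3, the receptor whose own kinase is weak, read 253 to 305 in R26Pax3/Pax3 and 249 to 309 in wild type on its brighter probe set, with a log2 difference of 0.03 (SE 0.0968, limma adjusted p = 1.00, n = 4 each). Nrg2 had a difference of 0.22 on its brightest probe set, on which all 8 values lay below the array medians. Epgn, epigen, read 22.4 to 28.5 in R26Pax3/Pax3 and 7.1 to 23.2 in wild type, and it was too dim to test. Nrg3 and Nrg4, also too dim to test, read at most 27.2 on any array.

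Genes that release or hold the ligands at the cell surface did not move together. Of 12 tested genes, each by the log2 difference of its brightest probe set, 5 were higher and 7 lower, 0 were called in limma, and 0 had an unadjusted p under 0.05. The median log2 difference was -0.01, beside 0.00 over the 12339 genes tested. Adam17, the main sheddase of Hbegf and Tgfa, averaged 305 ± 16.2 in R26Pax3/Pax3 arrays and 342 ± 40.9 in wild type arrays (SD, n = 4 each), a difference of -0.15, while its other probe sets had 0.05 and 0.14. Adam19, another metalloprotease of the ADAM family, had -0.24, Cd44, a surface proteoglycan, had -0.09, and Rhbdf1, an inactive rhomboid that guides ADAM17, had 0.10.

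Among genes between the receptors and ERK, 5 of 15 were higher and 10 lower, with 0 called in limma and a median of -0.07. Stat3, a transcription factor activated by growth factors and cytokines, was the only gene of this list with an unadjusted limma p under 0.05. That is 1 of 15, or 6.67%, beside 5.58% of all genes tested. Its means were 511 ± 68.6 and 413 ± 47.2 (SD, n = 4 each), a log2 difference of 0.29 (SE 0.113, limma adjusted p = 0.992), with 0.58 within the first 4 arrays and 0.00 within the last 4. Its other tested probe sets had 0.15, -0.01 and -0.04. The small GTPase Nras had 0.15, and the adaptor Shc1 and the phospholipase Plcg1 had -0.22 and -0.18.

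Of 17 genes that restrain the receptors or ERK, 11 were higher and 6 lower, 0 were called in limma, and the median was 0.03. Errfi1, an inhibitor that binds the kinase domain of EGFR and is itself induced by EGFR signalling, was among the 3 genes with an unadjusted p under 0.05, or 17.6% of the list beside 5.58% of all genes tested. On its brighter probe set it read 349, 312, 306.2 and 333 in R26Pax3/Pax3 and 255, 306.1, 303.2 and 245 in wild type. The groups were thus apart by the margin between R26Pax3/Pax3 replicate 4 and wild type replicate 6 alone, and the log2 difference was 0.22 (SE 0.0993, limma adjusted p = 1.00, n = 4 each). Its other probe set had 0.22 as well, again without overlap. Socs3, an inhibitor of cytokine receptors, read 229 ± 33.1 against 133 ± 26 (SD, n = 4 each), a log2 difference of 0.73 (SE 0.141, limma adjusted p = 0.282), with 0.68 and 0.31 on its other probe sets. By brightest probe set, the groups of Errfi1 and Socs3 did not overlap. That is 11.8% of the list beside 3.22% of all genes tested. Dusp6, the phosphatase that switches off ERK, had 0.41 with overlapping groups, and Ptpn1, a tyrosine phosphatase, had 0.13.

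Of 20 tested genes used as readouts of ERK and growth factor signalling, 16 were higher and 4 lower, with a median of 0.10, 0 called in limma and 3 at an unadjusted p under 0.05. Over all genes tested, 49.0% were higher and 5.58% had an unadjusted p under 0.05. Ier3, an immediate early gene, read 246 ± 46.7 against 139 ± 7.46 (SD, n = 4 each), a log2 difference of 0.74 (SE 0.133, limma adjusted p = 0.206), and was the only gene of the list whose groups did not overlap, where 3.22% of all genes tested did not. Ccn2, a matrix-associated growth factor, had 0.33, and Dusp6, which this list shares with the previous one, had 0.41. Egr3, an immediate early transcription factor, had 0.67 with 84.0 ± 72.2 against 40.9 ± 28 (SD, n = 4 each), and its groups overlapped. On that probe set R26Pax3/Pax3 replicate 3 read 186.4 and the other R26Pax3/Pax3 arrays at most 79.5. Another probe set of Egr3, too dim to test, had -0.20. The lists were drawn up with earlier results of these data known, Ier3 included, and none of them is called different from other genes.

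**Figure D5:**
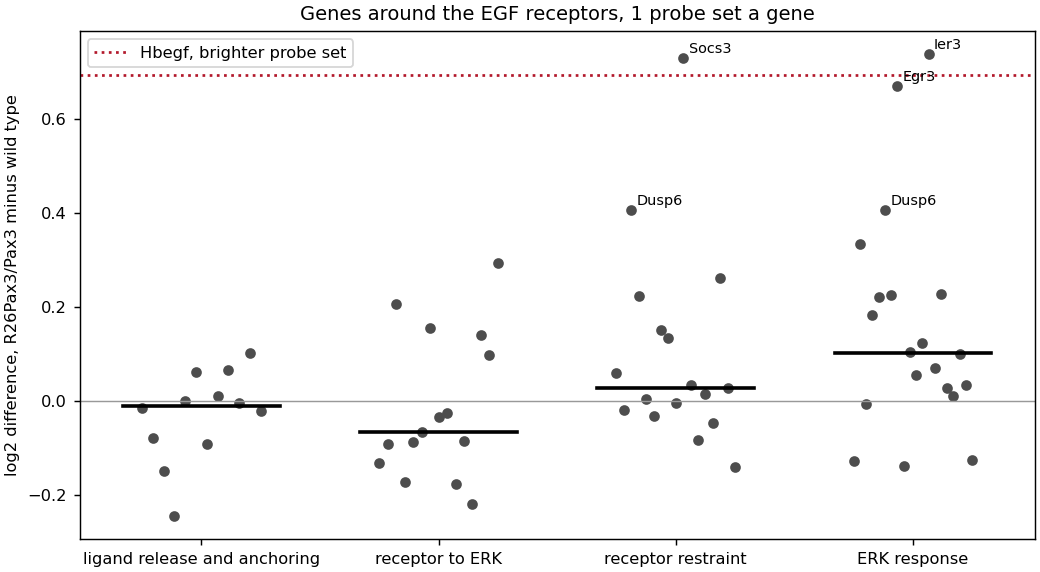
Log2 difference, R26Pax3/Pax3 minus wild type, of genes around the EGF receptors in 4 lists, with 1 point per gene (its brightest probe set), a black bar at each list's median and a dotted line at the 0.69 of Hbegf. Genes past 0.4 are named: Socs3 and Ier3, at 0.73 and 0.74, lie above the Hbegf line and Egr3 and Dusp6 below it.

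The genes whose profile over the 8 arrays was most like that of Hbegf on 1418350_at were Cdkn2b, Gng12, Ier3, Eif2d and Cdcp1, in that order. Likeness was the root mean square difference of log2(signal + 16) after each probe set was centred on its mean. It was 0.103 for Cdkn2b, an inhibitor of cell cycle kinases, 0.104 for Gng12, a G protein subunit, 0.114 for Ier3, 0.124 for Eif2d, a translation factor, and 0.147 for Cdcp1, a membrane protein phosphorylated by Src kinases. The median over 12338 genes was 0.380. The other Hbegf probe set lay at 0.282, and 594 genes lay closer than it. Being like Hbegf here includes its difference between genotypes, so the log2 differences of these genes, 0.47 to 0.77, are fixed in part by how they were found.

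Most markers of epithelium, a tissue known to make EGF family ligands, also had higher means. All 16 markers lay above the array median on every array. Of the 16, 13 were higher and 3 lower in R26Pax3/Pax3, with a median log2 difference of 0.23 and 0 called in limma. An unadjusted limma p under 0.05 was seen for 6, or 37.5% beside 5.58% of all genes tested. These 6 were Krt17, Pkp1, Krt14, Sfn, Cldn6 and Dsp, at 0.96, 0.67, 0.62, 0.56, 0.48 and 0.29. Krt15, Krt19 and Epcam had 0.07, 0.04 and 0.03. The 3 lower ones, Grhl2, Krt8 and Krt18, had -0.03, -0.03 and -0.06. Summed over the 16 markers, the signal was 8951 to 12145 in R26Pax3/Pax3 and 8363 to 9988 in wild type. Within R26Pax3/Pax3, replicate 3 had the lowest epithelial sum, 8951, and the lowest Hbegf signal on 1418350_at, 107. Within wild type, replicate 6 had the lowest sum, 8363, and the highest Hbegf signal, 79.9, and replicate 2 had the highest sum, 9988, and the lowest Hbegf signal, 64.4. Means of neuronal markers were higher as well, 8 of 8 with 0 called in limma and 3 at an unadjusted p under 0.05, with sums of 1046 to 1771 against 494 to 1870. Wild type replicates 2 and 11 had the lowest neuronal sums, 494 and 522, and wild type replicate 6 the highest, 1870. Means of skeletal muscle markers were lower, 8 of 8 with 0 at either threshold, with sums of 879 to 5893 against 2609 to 6732. The 879 was that of R26Pax3/Pax3 replicate 7, and the other R26Pax3/Pax3 muscle sums were 2948 or more. Endothelial sums were 1096 to 1269 against 1141 to 1210, and macrophage sums 1308 to 2024 against 1391 to 1590. Schwann cell sums, over 5 markers, were 359 to 412 against 257 to 437. Mesenchymal sums were 38010 to 45059 against 40371 to 50471. Of 10 mesenchymal markers 3 were higher and 7 lower, with 0 called in limma and 3, or 30%, at an unadjusted p under 0.05. These 3 were Lum and Col1a1, at -0.35 and -0.33, and Osr2, at 0.34. No marker was at 0, and the part of these cell types in the Hbegf difference was not tested.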

How the data were processed

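The authors deposited signal intensities per probe set on a linear scale, for which the submitters' processing notes name MAS5 without a version. In these values the mean without the lowest and highest 2% was 150 on each array, a scaling under which a shift common to most genes would not be seen. Scanner files and detection calls were not used here. Probe sets were named from the platform's annotation, with 34945 of 45037 having a single symbol, 932 several and 9160 none, and 64 control probe sets left out.

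Signals were taken as log2(signal + 16). A filter removed probe sets whose mean signal did not exceed its 40th percentile, 25.4, and kept 27021. The comparison of genotypes used limma 3.58.1 under R 4.3.3 (lmFit, eBayes with an intensity trend, two-sided, no covariate), adjusted by Benjamini-Hochberg over all probe sets tested. The script was tested on simulated data. Adjusted p-values near 1 were rounded. The number of arrays limits the precision. No array duplicated another, and correlations between arrays were 0.975 to 0.982.

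The members and gene lists were chosen with earlier results of these data known. Genes of a list are named by rule: the 4 smallest p-values in each list, and the 5 profiles closest to Hbegf. Other values named belong to list members. Alternatives covered the pseudocount, the filter, quantile normalization, order of deposition, the trend and each array left out.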

Additional observations from a re-analysis of the deposited data

Results flagged for a closer look

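Of 38 groups of 4 arrays checked, 2 for each of the 19 member probe sets, 4 held an array far from the other 3 (a gap, relative to the group's range, above Dixon's 95% critical value). Chance flags about 1 in 20 groups. On Tgfa 1450421_at, wild type replicate 6 read 23.1 where the others read 48.3 to 54.8. On Egfr 1460420_a_at, R26Pax3/Pax3 replicate 3 read 158.1 where the others read 123.3 to 125.1. On Egfr 1457563_at, R26Pax3/Pax3 replicate 7 read 0.8 where the others read 10.4 to 12.6, and on Erbb4 1427783_at, wild type replicate 6 read 11.6 where the others read 0.7 to 1.7. Both of these last probe sets are below the array medians throughout. No Hbegf or Erbb2 group was among the 4.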

How the results depend on the processing

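No tested EGF family probe set besides Hbegf was called under any of the 15 alternatives (0 in each, smallest limma adjusted p 0.857). The number of calls over all probe sets was 4 under the 7 alternatives that kept all arrays and ran from 4 to 9 when 1 array was left out, with 9 without R26Pax3/Pax3 replicate 3, and the 4 were kept each time. Hbegf was not among the calls, from which nothing is read because it was chosen on this contrast. Its log2 difference on 1418350_at was 0.48 with a pseudocount of 64 and 0.80 with 1, and ran from 0.66 to 0.75 with an array left out. The intervals of the other members stayed below the Hbegf difference on 1418350_at, a selected value taken without an interval, under 14 alternatives. Without R26Pax3/Pax3 replicate 7 that of Egfr 1424932_at reached 0.659 where Hbegf was at 0.656. Differences near 0 changed sign in 6 probe sets, and the cause of these changes and of the 9 calls was not tested. With a pseudocount of 64 these were Egf at -0.000218 and Tgfa 1421943_at at -4.53e-05. With an array left out, the ranges were -0.144 to 0.088 for Btc 1435541_at, -0.0572 to 0.0431 for Egf, -0.0658 to 0.176 for Egfr 1432647_at, -0.0426 to 0.197 for Egfr 1435888_at, -0.157 to 0.0606 for Egfr 1460420_a_at and -0.0735 to 0.0866 for Tgfa 1421943_at. The filter at the 60th percentile left only 4 of the 10 tested probe sets besides Hbegf, and leaving out wild type replicate 6 or 2 left 9. The wild type embryos were littermates, but the labels do not say which samples share a litter. The genotypes also share no replicate number, so no paired analysis was possible.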
